A study of Mus musculus with 8 samples.

Results

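The D-type cyclins (Ccnd1, Ccnd2 and Ccnd3), their partner kinases (Cdk4 and Cdk6), 4 inhibitors of cyclin-dependent kinases (Cdkn1a, Cdkn1b, Cdkn1c and Cdkn2c) and the retinoblastoma gene Rb1 were followed in brown adipose tissue (BAT) of wild-type (WT) and db/db mice. The 10 genes were chosen by name, as the core of the G1 step of the cell cycle, after Ccnd1 was known to be higher in db/db in these same libraries. All 10 were found among the 31053 genes of the count table, and all 10 were among the 9264 that passed the filter on low counts. Because the choice started from this comparison, the values of the 10 genes are given as a description and carry no p-value.

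BAT, the heat-producing fat of rodents, was taken from male mice at 8 weeks of age after fasting and profiled by bulk RNA-seq, with 4 WT and 4 db/db libraries. The labels give the strain of both groups as C57BL6/J, and the study's methods name the db/db mice as B6.BKS(D)-Lepr db/J. They carry the Lepr db mutation, which disables the long form of the leptin receptor in the whole body and causes hyperphagia and obesity. The study does not give the supplier of the WT mice or the stock of the db/db mice alike throughout, and any difference in supplier or strain background cannot be told apart from genotype. The labels name the cell type as stromal vascular fraction, the part of fat tissue that is left without adipocytes. The adipocyte genes Adipoq and Plin1 and the thermogenic gene Ucp1 were nevertheless abundant in all 8 libraries (at least 1245, 387.9 and 1056 CPM, which are counts scaled to a common library size by TMM). Lepr itself held 0 counts in every library and could not check the genotype labels. WT libraries held 2374079 to 2615009 counts in all and db/db libraries 2382722 to 3240074, and the level that 3 counts represent lay between 0.902 and 1.33 CPM.

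D-type cyclins are the growth-factor-sensitive subunits that bind and activate CDK4 and CDK6 in G1. The active kinases phosphorylate the retinoblastoma protein, which then releases E2F factors and lets the genes of S phase be transcribed. p18 (Cdkn2c) belongs to the INK4 family, which binds CDK4 and CDK6 alone, whereas p21, p27 and p57 (Cdkn1a, Cdkn1b and Cdkn1c) bind cyclin and kinase together and restrain CDK2 most strongly. Mature brown adipocytes are largely post-mitotic, and dividing cells in the depot are mostly found among progenitors, endothelial cells and immune cells. D cyclins also have roles outside division, and cyclin D1 is known to restrain PPARγ, the master factor of adipocytes.

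Ccnd1 stood far apart from the other 9 genes. It was 29.6-fold higher in db/db, while Ccnd2 was 1.94-fold higher and the means of the other 8 genes differed by at most 1.41-fold in either direction. Of the 10 genes, 2 (Ccnd1 and Ccnd2) were called higher and 0 lower at an adjusted p of 0.05 in edgeR, beside 15.8% of all tested genes called higher, 11.9% called lower and 27.7% called in either direction. At an unadjusted p of 0.05, 3 were higher and 2 lower, beside 21.2% and 17.7% of all tested genes. DESeq2 called 1 higher and 0 lower, beside 1419 higher and 1108 lower among all 9264 genes. With limma-voom 2 were higher and 0 lower, beside 1417 higher and 1121 lower among all genes. The median log2 fold change of the 10 genes was -0.07, and that of all tested genes was 0.0066.

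**Figure D1:**
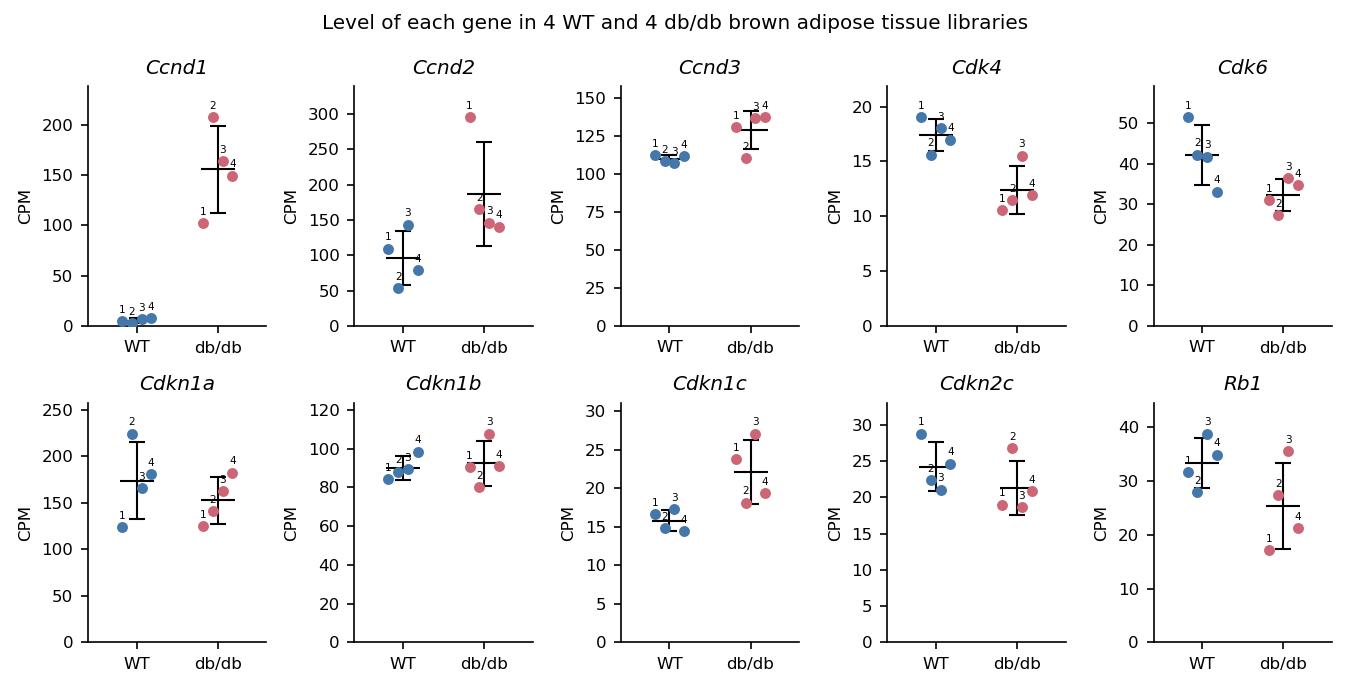
CPM of each of the 10 genes in the 4 WT and 4 db/db libraries (points, numbered by replicate), with the mean and SD of each group in black and each vertical axis starting at 0. Ccnd1 lies between 2.53 and 7.64 CPM in WT and between 102.0 and 207.4 CPM in db/db, whereas the groups of most other genes overlap.

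Ccnd1, which encodes cyclin D1 (ENSMUSG00000070348, mm10 chromosome 7, 144929931 to 144939925, minus strand), held 11, 6, 17 and 18 counts in WT replicates 1 to 4. In db/db replicates 1 to 4 it held 339, 652, 370 and 402 counts. After scaling these were 4.45, 2.53, 6.39 and 7.64 CPM in WT and 102.0, 207.4, 164.0 and 149.5 CPM in db/db. Every db/db library lay above every WT library, which was so for 15.3% of all tested genes. The means were 5.25 ± 2.24 CPM in WT and 155.7 ± 43.5 CPM in db/db (SD, n = 4 each), and the log2 fold change was 4.87 (SE 0.27), the 18th largest increase among the 9264 genes tested. Within WT the highest library was 3.02 times the lowest, on counts of 18 and 6, and within db/db it was 2.03 times the lowest. Exons of Ccnd1 overlap those of LTO1 on the other strand, and the sources do not say if strand was used in counting. LTO1 held 13 to 21 counts in WT and 22 to 31 in db/db, and reads in the shared exons could not be counted apart.

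Ccnd2 encodes cyclin D2 (mm10 chromosome 6, 127125162 to 127152193, minus strand), a D cyclin with its own pattern of use across tissues. Its levels in WT replicates 1 to 4 were 109.3, 53.6, 143.2 and 78.5 CPM. In db/db they were 295.1, 165.4, 145.8 and 140.6 CPM. The lowest db/db library (140.6 CPM) fell just under the highest WT library (143.2 CPM), so the groups overlapped, and db/db replicate 1 stood well above the other 3. The means were 96.1 ± 38.7 and 186.7 ± 73.0 CPM (SD, n = 4 each). The log2 fold change was 0.96 (SE 0.26), and it was 0.64 without db/db replicate 1. Ccnd2 was no longer called with DESeq2 (0.95) or with a score of skeletal muscle markers as covariate (0.55).

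Ccnd3, for cyclin D3, was the steadiest of the D cyclins within WT, with 112.5, 108.5, 107.1 and 111.6 CPM. In db/db it measured 130.6, 110.4, 136.5 and 137.3 CPM. Of the 4 db/db libraries, replicate 2 lay within the WT range and the other 3 lay above it. The log2 fold change was 0.23 (SE 0.13) and the interval of 1.96 SE on either side ran from -0.02 to 0.47, well below the value of Ccnd1. Exons of Bysl overlap Ccnd3, and Bysl held at most 48 counts in a library.

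The D cyclin transcripts differed between the groups in their proportions as well as in their sum. Ccnd1 made up 1.97%, 1.54%, 2.49% and 3.86% of the counts of the D cyclins in WT replicates 1 to 4. In db/db it made up 19.3%, 42.9%, 36.7% and 35.0%. These shares compare libraries and not the abundance of one cyclin with another, since counts were not scaled by transcript length. Both the shares and the sum carry the rise of Ccnd1 that was known before the choice. The D cyclins summed to between 164.6 and 256.6 CPM in WT and to between 427.4 and 527.7 CPM in db/db, without overlap.

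Neither kinase partner was called. Cdk4, which encodes the kinase most widely paired with D cyclins (mm10 chromosome 10, 127063534 to 127067920), measured 19.0, 15.6, 18.04 and 16.98 CPM in WT. In db/db it measured 10.5, 11.5, 15.5 and 11.9 CPM. Every db/db library lay below every WT library, as in 12.7% of all tested genes, although db/db replicate 3 came close to the lowest WT library. The log2 fold change was -0.51 (SE 0.22), on only 32 to 48 counts per library. Cdk4 shares exonic sequence with Tspan31, which held 12 to 34 counts.

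Cdk6, the second kinase of the pair, measured 51.4, 42.2, 41.7 and 33.1 CPM in WT. In db/db it measured 31.0, 27.4, 36.3 and 34.6 CPM. The groups overlapped, since the lowest WT library lay below 2 of the db/db libraries, and the log2 fold change was -0.39 (SE 0.18). It was -0.07 with the muscle score as covariate. The interval of 1.96 SE ran from -0.95 to -0.07 for Cdk4 and from -0.73 to -0.04 for Cdk6. These intervals are unadjusted and a description, and neither kinase was called in any setting.

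**Figure D2:**
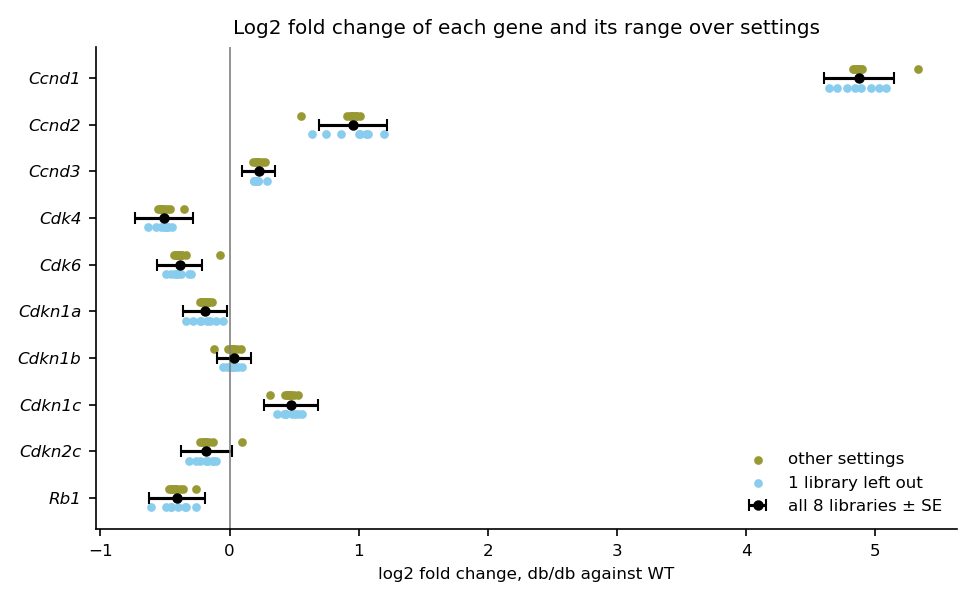
Log2 fold change of each of the 10 genes in db/db against WT over all 8 libraries (black, with SE), with 1 library left out (blue) and under the other settings (olive). Ccnd1 stays between 4.64 and 5.33, Ccnd2 between 0.55 and 1.19, and the other 8 genes between -0.63 and 0.56.

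None of the 4 inhibitors was called in either direction. Cdkn1a encodes p21, the inhibitor best known as a target of p53. It measured 123.8, 224.1, 165.7 and 180.4 CPM in WT, and 124.5, 141.3, 162.2 and 182.3 CPM in db/db. The db/db values fell inside the WT range in all 4 libraries, and the log2 fold change was -0.19 (SE 0.17, interval from -0.52 to 0.15).

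Cdkn1b, for p27, measured 84.2, 88.2, 89.4 and 98.5 CPM in WT and 90.6, 80.2, 107.7 and 91.1 CPM in db/db. Its log2 fold change was 0.03 (SE 0.13), the nearest to 0 of the 10 genes, with an interval from -0.23 to 0.30. Its sign changed between settings.

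Cdkn1c encodes p57, an imprinted inhibitor expressed mainly from the maternal allele. It measured 16.6, 14.8, 17.3 and 14.4 CPM in WT and 23.8, 18.1, 27.0 and 19.3 CPM in db/db. Although every db/db library lay above every WT library, the gene was not called (log2 fold change 0.48, SE 0.21, interval from 0.07 to 0.89, on 34 to 79 counts per library). Cdkn1c and Ccnd1 were the 2 of the 10 genes with db/db wholly above WT, a pattern seen in 15.3% of all tested genes.

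Cdkn2c, for the INK4 inhibitor p18, measured 28.7, 22.4, 21.04 and 24.6 CPM in WT. In db/db it measured 19.0, 26.7, 18.6 and 20.8 CPM. The groups overlapped, with db/db replicate 2 above 3 of the 4 WT libraries, and the log2 fold change was -0.18 (SE 0.20, interval from -0.57 to 0.21).

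Rb1, the substrate of the D cyclin kinases, measured 31.6, 27.9, 38.7 and 34.8 CPM in WT and 17.1, 27.4, 35.5 and 21.2 CPM in db/db. The 3 db/db libraries other than replicate 3 lay below all WT libraries, and replicate 3 lay within the WT range. The log2 fold change was -0.41 (SE 0.22), not called, and it became -0.61 and was called when db/db replicate 3 was left out. Exons of Rcbtb2 and Lpar6 overlap Rb1, and both held more counts than Rb1 in most libraries, so the Rb1 counts are uncertain where counting did not use the strand.

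Ratios within a library do not depend on the scaling between libraries. Every ratio with Ccnd1 carries the rise of Ccnd1 that was known before the choice, and is a description. The log2 ratio of Ccnd1 to Cdk4 counts was -2.05, -2.53, -1.47 and -1.13 in WT replicates 1 to 4 and between 3.26 and 4.16 in db/db, a difference of 5.40. For Ccnd1 to Cdkn1a the difference was 5.07, for Ccnd1 to Ccnd3 it was 4.68 and for Ccnd1 to Ccnd2 it was 3.92, each without overlap between the groups. The ratio of Cdkn1a to Cdkn1b differed by -0.20 with overlapping groups. In the ratio of Ccnd1 to Ccnd2, db/db replicate 1 (-1.53) lay apart from the other 3 db/db libraries (at most 0.33), as it held the lowest Ccnd1 and the highest Ccnd2 of its group.

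**Figure D3:**
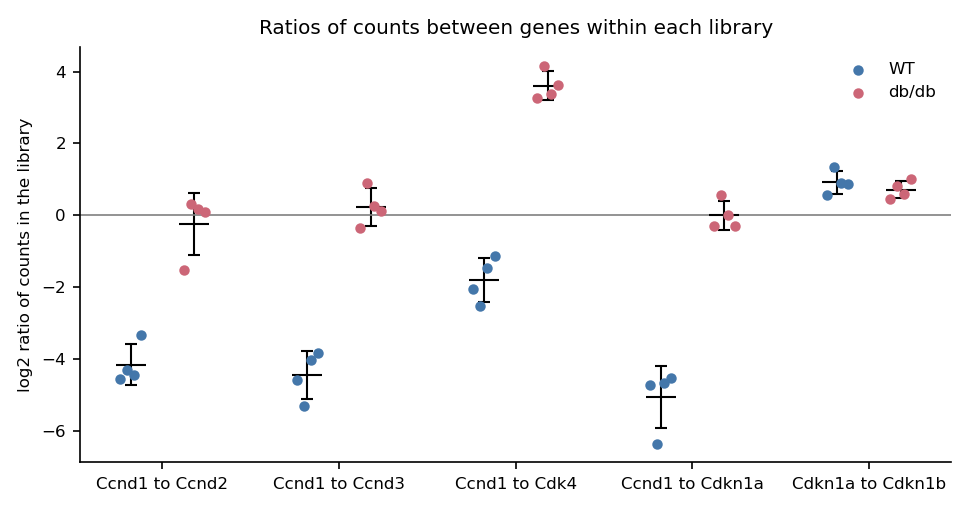
Log2 ratio of the counts of 2 genes within each library, with 0.5 added to each count, for WT (blue) and db/db (red), with the mean and SD of each group in black. The 4 ratios with Ccnd1, which all carry its rise, differ by 3.92 to 5.40 between the groups without overlap, whereas Cdkn1a to Cdkn1b overlaps.

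Whether other genes moved with Ccnd1 was read from 129 further genes of the cell cycle and its regulators, within and beyond G1, in 9 lists arranged by role. Of these, 70 passed the filter on low counts, and 9 of the 70 rose and 6 fell in db/db (edgeR, adjusted over all 9264 genes), a called share of 21.4% against the 27.7% of all tested genes. The median log2 fold change of the 70 was -0.02. With the muscle score as covariate 4 of these 15 genes stayed called, which were Cryab, Fbxo31, Jund and Klf6. The score, the mean over the muscle markers of log2 CPM centred and scaled to unit SD across the 8 libraries, lay between -1.37 and -0.12 in the WT libraries and between 0.06 and 1.59 in the db/db libraries, so that it ran wholly with genotype. All 11 genes that lost their call kept their direction. With the score the log2 fold change was -0.86 for Cul4b, -1.24 for Cdc25a, -1.42 for E2f5, -1.24 for Trp53inp1, -0.53 for Sp1, 0.97 for Cdk1, 0.60 for Wwtr1, 0.75 for Tcf7l2, 0.78 for Tcf7l1 and 0.95 for Yap1, against -0.84, -0.91, -1.57, -1.09, -0.66, 1.02, 0.53, 0.86, 1.05 and 0.51 without it. That of Fbxw7 was 0.40 with the score and 0.74 without. Among 5 other INK4 and pocket protein genes, 2 passed the filter, Cdkn2d and Rbl2, and 0 were called by edgeR, by DESeq2, by limma-voom or at an unadjusted p of 0.05.

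**Figure D4:**
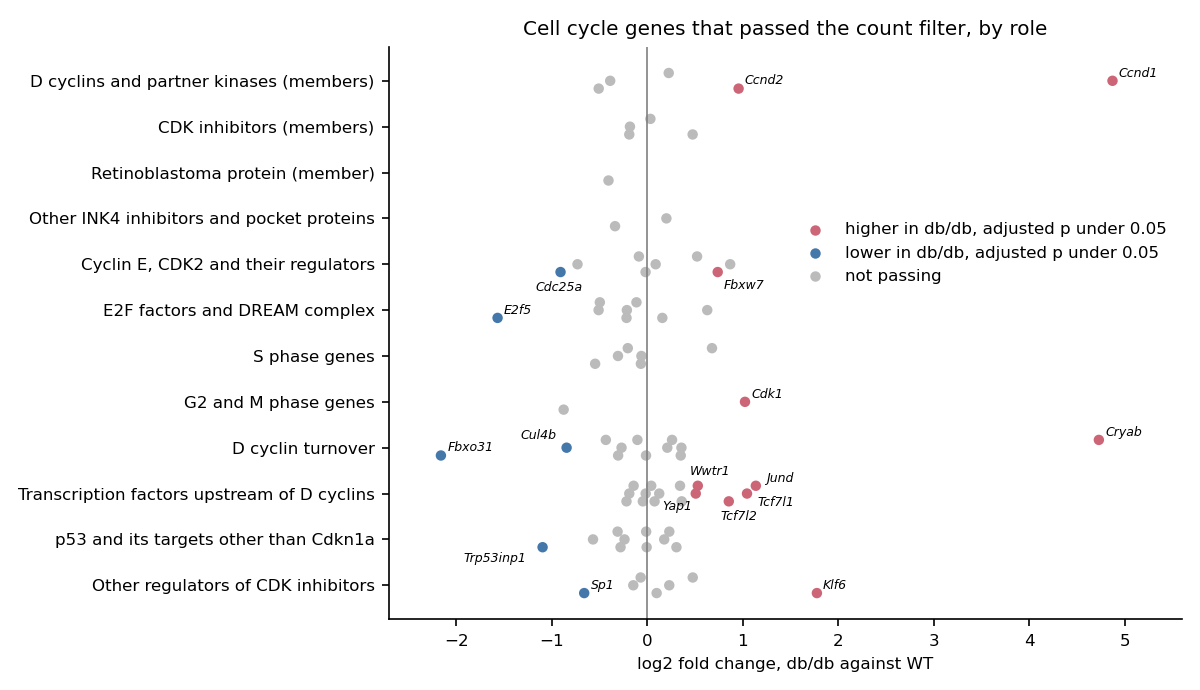
Log2 fold change in db/db against WT of the cell cycle genes that passed the count filter, one point a gene, in rows by role, coloured by whether the gene passed an edgeR adjusted p of 0.05 (the first 3 rows are a description only). Ccnd1 (4.87) and Cryab (4.73) lie far to the right and Fbxo31 (-2.16) far to the left, while the 6 S phase genes that passed the filter lie between -0.54 and 0.68, none of them called.

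Of the 12 genes for turnover of D cyclins, all passed the filter, with 1 higher, 2 lower and 9 not called. That was a called share of 25%, near the 27.7% of all tested genes. Fbxo31 encodes an F-box protein that has been reported to direct cyclin D1 to degradation after DNA damage. It measured 224.2, 295.9, 266.0 and 258.9 CPM in WT and 55.1, 73.5, 50.1 and 54.7 CPM in db/db, without overlap, a log2 fold change of -2.16 (SE 0.15; adjusted p 2.77e-08 in edgeR). Cryab, a small heat shock protein reported to act with Fbxo4 on cyclin D1, averaged 18.7 ± 3.47 CPM in WT and 495.1 ± 136.6 CPM in db/db (SD, n = 4 each) and rose by 4.73 on the log2 scale (SE 0.22; adjusted p 1.32e-10 in edgeR). Cryab is also abundant in muscle, and it rose by 3.83 with the muscle score as covariate. Cul4b, a scaffold of the ligase that Ambra1 guides to D cyclins, fell by 0.84 (SE 0.17; adjusted p 0.00142 in edgeR), whereas Ambra1 itself (log2 fold change -0.43, SE 0.40) and Fbxo4 (0.36, SE 0.22) were not called.

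Of 19 transcription factors known to act on D cyclin genes, 15 passed the filter, of which 5 rose, 0 fell and 10 were not called. That was a called share of 33.3%, near the 27.7% of all tested genes. Jund, a subunit of AP-1, averaged 44.4 ± 13.6 CPM in WT and 98.0 ± 16.3 CPM in db/db (SD, n = 4 each) and rose by 1.14 on the log2 scale (SE 0.20; adjusted p 0.000284 in edgeR). Tcf7l1 and Tcf7l2, which bind DNA for the Wnt pathway, rose by 1.05 (SE 0.18) and 0.86 (SE 0.18), each with db/db wholly above WT. Wwtr1, which encodes the Hippo effector TAZ, rose by 0.53 (SE 0.18) with overlapping groups, and its partner Yap1, named after its value was seen, rose by 0.51 (SE 0.18). Yap1 lost its call with DESeq2 (0.50), with the muscle score as covariate (0.95), and without any one of WT replicates 1 to 4 (0.43 to 0.53) and db/db replicates 2 and 4 (0.37 and 0.48). Wwtr1 lost its call without any one of WT replicates 1, 2 and 4 (0.52, 0.41 and 0.49) and db/db replicates 2 and 3 (0.43 and 0.45), and the list held 3 calls in place of 5 without WT replicate 1, 2 or 4 or db/db replicate 2. Ctnnb1, for β-catenin, was close between groups (log2 fold change 0.08, SE 0.12, not called). Myc held at most 11 counts in any library and did not pass the filter.

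Of the 11 genes of the cyclin E and CDK2 step, 8 passed the filter, of which 1 rose and 1 fell. That was a called share of 25%, near the 27.7% of all tested genes. Fbxw7, the ligase subunit that marks cyclin E for degradation, rose by 0.74 (SE 0.24; adjusted p 0.0270 in edgeR) with overlapping groups. Cdc25a, the phosphatase that activates CDK2, fell by 0.91 (SE 0.28; adjusted p 0.0214 in edgeR), without overlap. Cdk2 lay lower in every db/db library but was not called (difference of -0.73 on the log2 scale, SE 0.29; adjusted p 0.0746 in edgeR), and Ccne1 held at most 13 counts in any library. Fbxw7 was not called without WT replicate 2 (0.60), WT replicate 4 (0.65) or db/db replicate 1 (0.54), nor Cdc25a without WT replicate 3 (-0.86) or WT replicate 4 (-0.79), and Cdk2 was called lower without WT replicate 3 (-0.87).

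Downstream of Rb1, most genes were near or under the detection floor. Of 16 E2F and DREAM complex genes, 8 passed the filter and 1 fell, E2f5, a repressive E2F. It averaged 12.2 ± 3.22 CPM in WT and 4.01 ± 1.82 CPM in db/db (SD, n = 4 each). The change was -1.57 on the log2 scale (SE 0.36, adjusted p 0.00312 in edgeR). E2f5 held 22 to 38 counts in WT and 5 to 20 in db/db. It thus reached the minimum count of the filter throughout WT only, the group where it was higher. Requiring that count in every library removed E2f5, and it stayed called where no filter on low counts was used (-1.61). Of 21 S phase genes, 6 passed the filter and 0 were called by edgeR, by DESeq2, by limma-voom or at an unadjusted p of 0.05. Leaving out WT replicate 3 or db/db replicate 3 gave 1 call. Pcna, the sliding clamp of replication, measured 12.2 ± 2.15 CPM in WT and 11.6 ± 1.96 CPM in db/db (SD, n = 4 each), a log2 fold change of -0.07 (SE 0.25). Summed over the list, S phase genes reached 62.8 to 78.2 CPM in WT and 77.6 to 88.4 CPM in db/db, a ratio of means of 1.13 with overlapping groups.

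Genes of G2 and M phase differed more in sum. Of 22, only 2 passed the filter, and Cdk1, the mitotic kinase, averaged 4.30 ± 1.03 CPM in WT and 8.80 ± 1.08 CPM in db/db (SD, n = 4 each) and rose by 1.02 on the log2 scale (SE 0.33; adjusted p 0.0277 in edgeR). Cdk1 held 8 to 13 counts in WT and 22 to 27 in db/db. It thus reached the minimum count of 10 throughout db/db only, the group where it was higher. Requiring 10 counts in every library removed it. Its call was lost without WT replicate 1 (1.02), 2 (1.01) or 3 (0.86) or db/db replicate 3 (0.97) or 4 (0.97), and where no filter on low counts was used (0.98). The whole list summed to 23.3 to 27.9 CPM in WT and to 33.7 to 68.6 CPM in db/db, a ratio of means of 2.15 without overlap. Mki67, the common marker of dividing cells, held 0, 1, 0 and 0 counts in WT and 18, 7, 3 and 8 in db/db, and Top2a held 0, 1, 1 and 1 in WT and 36, 8, 5 and 28 in db/db. The db/db libraries with the most Top2a, replicates 1 and 4, were those with the 2 lowest Ccnd1 levels of the group. This order covers 4 libraries with 5 to 36 Top2a counts, and a relation was not tested.

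Where every gene with at least 1 count was tested, 128 of the 129 genes entered, and 15 rose and 6 fell, beside 19.3% called of 16410 genes. The genes that were added were Mki67, Top2a, Birc5 and Ube2c of G2 and M phase, Mcm6 of S phase, the activating E2f1 and E2f2, and Cdkn2b, while Cdk1 (0.98) and Yap1 (0.46) were no longer called. Cdkn2b, which encodes the INK4 inhibitor p15, held 0, 1, 3 and 1 counts in WT and 7, 15, 13 and 9 in db/db. Cdkn2a, of the same family, held at most 1 count in a WT library and at most 6 in a db/db library, and was not called.

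Of p53 and 15 of its targets other than Cdkn1a, 10 passed the filter, 0 rose and 1 fell, beside 15.8% of all tested genes called higher and 11.9% lower. Trp53inp1 fell by 1.09 (SE 0.25; adjusted p 0.00355 in edgeR), with WT replicate 2 the highest of its group. Mdm2, the ligase that limits p53, measured 34.8 ± 9.99 and 34.6 ± 8.26 CPM (SD, n = 4 each), and Trp53 held 5 to 9 counts in every library. Of 7 other regulators of the inhibitors, Klf6, a zinc finger factor reported to act on the p21 promoter, averaged 29.3 ± 3.02 CPM in WT and 100.6 ± 17.4 CPM in db/db (SD, n = 4 each) and rose by 1.78 on the log2 scale (SE 0.16; adjusted p 3.61e-07 in edgeR). Sp1 fell by 0.66 (SE 0.15; adjusted p 0.00326 in edgeR), and the FoxO factors Foxo1, Foxo3 and Foxo4 were not called.

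Markers of several cell types moved between the groups alongside the D cyclins, and in bulk tissue fewer cells of a type and less RNA per cell cannot be told apart. Macrophage markers summed to 177.7 to 239.2 CPM in WT and 817.8 to 1449 CPM in db/db, with 12 of 14 tested genes higher. Fibroblast and progenitor markers summed to 690.2 to 825.6 CPM in WT and 1255 to 2708 CPM in db/db, with 9 of 10 higher. Brown adipocyte markers were lower, at 9073 to 10689 CPM in WT and 3827 to 6859 CPM in db/db, with 7 of 9 tested genes lower.

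Skeletal muscle markers were higher for 18 of 18 genes, at 454.0 to 1670 CPM in WT and 2473 to 12480 CPM in db/db, where replicate 1 was 5.05 times the lowest library of its group. Endothelial markers summed to 489.6 to 546.3 CPM in WT and 369.0 to 431.7 CPM in db/db, with 3 of 10 lower. Smooth muscle and pericyte markers were 1.78-fold higher in sum, with 3 of 4 tested genes called, those of red blood cells 1.76-fold higher, with 1 of 5 called, and general adipocyte markers 1.23-fold higher, with 2 of 7 higher and 1 lower. None of the 8 lymphocyte markers passed the filter, and Cd79a was at 0 in all libraries.

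Among the db/db libraries, replicate 1 held the highest muscle, macrophage and fibroblast sums of its group, the highest Ccnd2 and the highest sum of G2 and M phase genes, but the lowest Ccnd1. Brown adipocyte markers summed to 3827, 5626, 5178 and 6859 CPM and general adipocyte markers to 19094, 22933, 21126 and 17528 CPM in db/db replicates 1 to 4. Ccnd1 in these libraries was lowest in replicate 1, then 4, 3 and 2. The general adipocyte sum was lowest in replicate 4, then 1, 3 and 2. For brown adipocyte markers the order was 1, 3, 2 and 4. These orders cover 4 libraries, and a relation was not tested. Ccnd1 was 5.02 higher on the log2 scale without db/db replicate 1, 4.70 higher without db/db replicate 2 and 5.33 higher with the muscle score as covariate, against 4.87 with all libraries and no covariate. The SE of Ccnd1 was 0.40 with the score and 0.27 without it. Because the score ran wholly with genotype, this fit cannot set muscle content apart from genotype. The part of skeletal muscle, macrophages, fibroblasts and adipocytes in the difference was not tested.

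**Figure D5:**
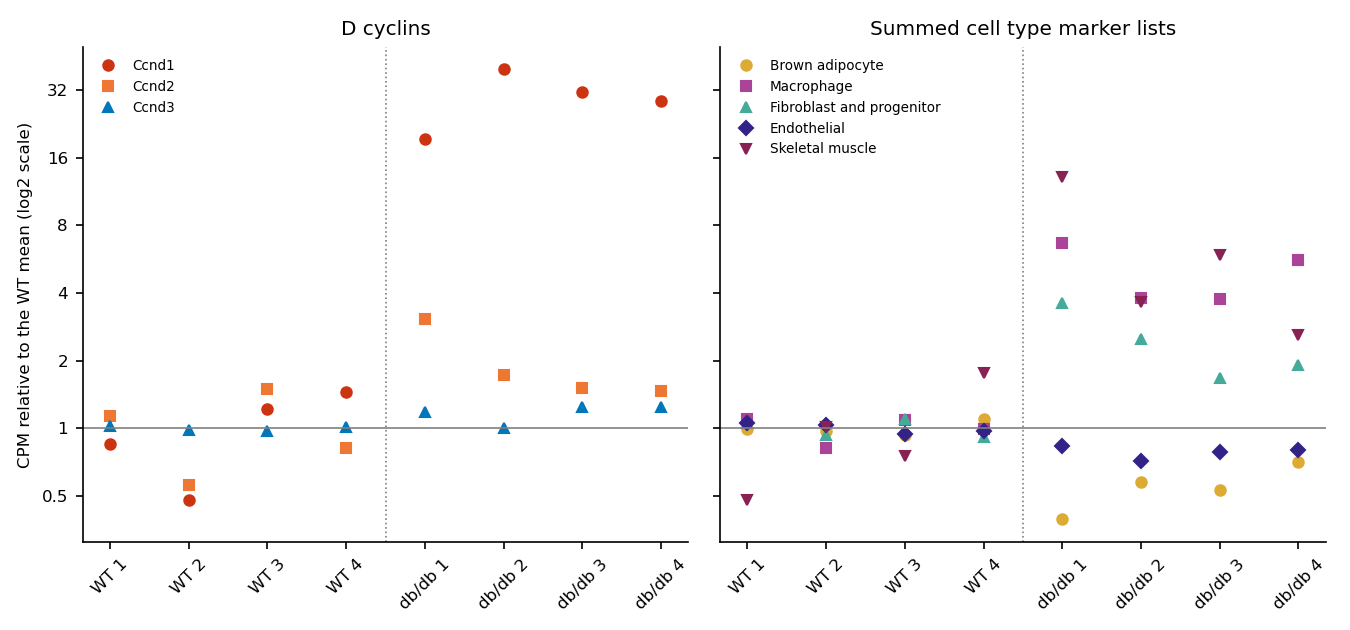
CPM relative to the WT mean in each library (log2 scale) for the D cyclins (left) and for the summed marker lists of 5 cell types (right), with a dotted line between WT and db/db. In db/db replicate 1 skeletal muscle, macrophage and fibroblast markers and Ccnd2 are highest and Ccnd1 is lowest of the 4 db/db libraries, although still 102.0 CPM against at most 7.64 CPM in WT.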

How the data were processed

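BAT from 4 WT and 4 db/db mice was profiled by single-end bulk mRNA-seq, and samples were grouped by the genotype in their titles. The authors deposited raw counts per Ensembl gene. The study's methods give bbduk, STAR on mm10 and HTSeq-count, whereas the submitters' processing notes name Trimmomatic, HISAT2, DESeq2 and GRCm38/mm10, so the aligner is given differently by the 2 sources. Strand use and collapsing of molecular identifiers are not given in the sources used here, and PCR copies may be included. Log2 values deposited beside the counts, and the sample sheet, were not used.

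Of 31053 genes, 31011 were matched to GENCODE M21 on the same build for symbols and positions, and the other 42 held at most 0.00213% of the counts of a library. Genes were filtered with filterByExpr (minimum count 10, minimum total 15), scaled by TMM and tested in edgeR 4.0.16 (R 4.3.3) by its quasi-likelihood F test on genotype alone, with Benjamini-Hochberg adjustment at 0.05 over 9264 genes. SE came from the F statistic, and CPM used the TMM-scaled library size. Totals between 2374079 and 3240074 counts set the precision, and floors of 3 counts cover counting error only. The procedure was tested on simulated data.

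The 10 genes, the lists and the tests were chosen with earlier results of these data known. Named genes were the 10 genes, up to 4 called genes a direction of each list by log2 fold change, Mki67, Top2a, Ccne1, Cdk2, E2f1, Myc, Trp53, Mdm2, Ccna2 and Pcna whatever they did, and the 5 genes of at least 5 CPM most like Ccnd1. The study gives 4 mice a group, and the libraries of a group were taken as separate mice. Same-numbered libraries did not deviate together (correlations of deviations from the group means between -0.08 and 0.05 over 4 pairs). Alternatives were DESeq2 1.42.0, limma-voom (limma 3.58.1), 4 other scalings, 2 other filters, a replicate block, a skeletal muscle score as covariate and leaving out each library. Figures were drawn with matplotlib 3.10.9.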

Additional observations from a re-analysis of the deposited data

Results flagged for a closer look

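Among 78 groups of 4 libraries, those of the named genes in each genotype, 7 held a library whose gap to its neighbours was large for the range of the group by Dixon's criterion, where 3.9 would be flagged by chance. Of the 10 genes this concerned Ccnd2, for which db/db replicate 1 held 295.1 CPM and the other db/db libraries 140.6 to 165.4 CPM. That library also held the highest summed skeletal muscle, macrophage and fibroblast markers, and their part in the Ccnd2 level was not tested.

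Cul4b measured 29.9 CPM in WT replicate 1 against 35.0 to 36.1 CPM in the other WT libraries. Tcf7l2 measured 23.9 CPM in the same library against 19.1 to 19.9 CPM. For Jund, db/db replicate 4 held 122.4 CPM and the others 88.1 to 92.2 CPM.

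The remaining 3 rest on 0 or 1 count. E2f1 measured 0.424 CPM in WT replicate 4, Mki67 measured 0.422 CPM in WT replicate 2 against 0 in the other WT libraries, and Top2a measured 0 CPM in WT replicate 1.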

How the results depend on the processing

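The Ccnd1 log2 fold change lay between 4.83 and 5.33 over 9 alternatives and between 4.64 and 5.08 with 1 library left out, and it was called each time. Ccnd1 was known to be higher in these same libraries before the genes were chosen, so these calls are a description and add no support. Requiring at least 10 counts in every library removed Ccnd1, which held 6 in WT replicate 2. It left 1 of the 10 genes called higher, beside 1122 genes called higher in all. Ccnd2 (0.55 to 1.01) lost its call with DESeq2 (0.95) and with the skeletal muscle score as covariate (0.55), each of which left 1 gene called higher. Leaving out 1 library gave 2 called higher each time and 0 to 1 lower, the latter Rb1 without db/db replicate 3 (over libraries left out, -0.61 to -0.26). Among all genes tested, the same fits called 1281 to 1435 higher and 889 to 1056 lower. The sign of Cdkn1b turned without a filter (-0.013), with the muscle score (-0.12) and over libraries left out (-0.050 to 0.096), and that of Cdkn2c with the muscle score (0.094). The muscle score cut the genes called to 517 (383 higher, 134 lower). It left 0 called of the cyclin E and CDK2, E2F, G2 and M phase and p53 lists, and 1 each of the upstream factors and the other regulators. The score lay below 0 in every WT and above 0 in every db/db library, the SE of Ccnd2 went from 0.26 to 0.45, and the genes of these lists that lost their call kept their direction. Without a filter, 1 of the INK4 and pocket protein list, 3 E2F, 1 S phase and 4 G2 and M phase genes were called, and at least 10 counts in every library left 0 in the E2F and the G2 and M phase lists. Library totals alone gave 3 upstream factors, and Yap1 was also not called under upper quartile scaling (0.49). With 1 library left out, the calls were 0 to 3 for cyclin E and CDK2, 0 to 1 for S phase, 0 to 3 for G2 and M phase, 3 to 5 for upstream factors and 1 to 2 for p53 targets. Mdm2 changed sign with limma-voom (0.012), without mitochondrially encoded genes (0.020), at 10 counts in every library (0.046), in the block (0.0017), with the muscle score (0.10) and over libraries left out (-0.18 to 0.19), and Pcna over libraries left out (-0.19 to 0.033). Apart from the filters and left-out libraries, which change what was tested, the cause was not tested. Of the values for the 10 genes, 94 of 99 under the alternatives and 77 of 80 with 1 library left out kept their direction and side of the threshold. For the other named genes that passed the filter 151 of 168 and 114 of 136 did, leaving aside the 5 genes most like Ccnd1, which were not followed.

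With replicate numbers entered as a block, 2557 genes were called, among them 2 of the 10, with Ccnd1 at 4.85 and Ccnd2 at 0.98, and no call among the 10 changed, while Yap1 was not called (0.49). The numbers concern different mice and do not pair them. At this depth 59 of the 129 further pathway genes could not be tested with the filter.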

Other observations

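The genes whose log2 CPM deviations from the genotype means were most like those of Ccnd1 over the 8 libraries, among 8688 genes of at least 5 CPM, were 1600002K03Rik (r = 0.985), Commd6 (r = 0.964), Tceal8 (r = 0.956), Zyg11b (r = 0.955) and Heatr3 (r = 0.950). They are the highest of 8688 values over 8 libraries that share depth and scaling, and they are given as a description. Of these 5 genes, Tceal8 was called higher in db/db (log2 fold change 0.77) and the other 4 were not called. Among the 10 genes, the within-genotype deviations were most alike for Cdk4 and Rb1 (r = 0.81) and most opposed for Ccnd2 and Cdkn1a (r = -0.77), again over 8 libraries.

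Ccna2, the cyclin of S and G2 phase, held 1, 0, 1 and 0 counts in WT and 0, 0, 7 and 7 in db/db.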
